A study of Homo sapiens with 2 samples.

Results

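The 4 mature miRNAs described here, miR-221-3p, miR-221-5p, miR-222-3p and miR-222-5p, are the products of both arms of 2 neighbouring hairpins, mir-221 and mir-222. They were chosen as every row of the deposited table whose precursor is 1 of these hairpins, and they are 4 of the 1497 mature miRNA names listed. The cells were A375, an established human melanoma line, and both samples were harvested after 48 h in DMSO, a solvent commonly used as a vehicle. The 2 samples, labelled as replicates, form 1 group, so no treatment was compared. The spread between the samples, which may be technical, is the only error measured. Replicate 1 held 10816826 read assignments and replicate 2 held 15428446. Levels are given in RPM, reads per 1000000 read assignments. The file's names carry the species prefix hsa-, which is left out here except where a level is first given.

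MiRNAs are cut from hairpin transcripts as duplexes of a 5p and a 3p arm, 1 arm of which is usually kept in an Argonaute protein as the guide while the other is discarded. A guide finds messenger RNAs mainly through its seed, the bases from position 2 to position 8, and lowers their stability and translation. MiR-221 and miR-222 are known as an oncogenic pair in melanoma and other tumours. Their reported targets include CDKN1B, which encodes the cell cycle inhibitor p27, and KIT, the receptor for stem cell factor that melanocytes depend on and that many melanomas lose.

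The mature sequences are shown because the seed joins the 3p arms and separates them from the 5p arm. They are RefSeq entries on GRCh38.p14, written 5′ to 3′ with the seed in capitals, and 3 of the 4 members had an entry. MiR-221-5p had none in the table used.
miR-221-3p: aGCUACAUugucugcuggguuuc
miR-222-3p: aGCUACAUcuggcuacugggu
miR-222-5p: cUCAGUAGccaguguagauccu

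The 3p arms of miR-221 (23 bases) and miR-222 (21 bases) were identical over their first 8 bases and so had the same seed, GCUACAU. Beyond that stretch they diverged, and in a global alignment 18 of 24 columns were identical. No other mature miRNA in the RefSeq table had this seed. MiR-222-5p (22 bases) had the seed UCAGUAG, which no other entry shared. Both 3p arms began with A, and miR-222-5p began with C.

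In GRCh38 with the GENCODE 29 annotation, MIR221 lies on the minus strand of chromosome X from 45746157 to 45746266, and MIR222 on the same strand from 45747015 to 45747124. The hairpins are 110 bases long each and 748 bases apart. Both lie inside the long noncoding gene MIR222HG (45745211 to 45770274), which has 2 annotated transcripts. In the longer of them, MIR222HG-201, both hairpins are intronic, and the shorter one, from 45768380 to 45770269, does not reach them. MIR221 stands 56 bases from the nearest exon of MIR222HG-201 and MIR222 914 bases. The hairpins are printed to show where the arms sit, with the arms that have a RefSeq entry in capitals.
MIR221: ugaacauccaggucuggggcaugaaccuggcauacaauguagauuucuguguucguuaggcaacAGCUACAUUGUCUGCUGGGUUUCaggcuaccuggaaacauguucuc
MIR222: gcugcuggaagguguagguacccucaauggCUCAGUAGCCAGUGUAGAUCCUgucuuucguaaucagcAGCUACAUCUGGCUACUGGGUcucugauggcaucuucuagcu

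Within these hairpins miR-221-3p covers bases 65 to 87, miR-222-3p bases 69 to 89 and miR-222-5p bases 31 to 52. In a global alignment 74 of 122 columns of the hairpins were identical, a smaller share than for the 3p arms.

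The first question was how much of each arm the cells held. The 3p arms were abundant and near each other, and the 5p arms were lower and apart. The level of hsa-miR-222-3p was 9376 RPM in the first replicate and 9111 RPM in the second (mean 9244 ± 187, SD, n = 2). That of hsa-miR-221-3p was 8923 and 7992 RPM (mean 8458 ± 658). MiR-222-3p was the higher of the pair in both libraries, but the ranges of mean ± SD overlapped, so these unpaired ranges did not resolve their order. The ratio within each library, which keeps the pairing, is given below.

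The level of hsa-miR-221-5p was 564 and 672 RPM (mean 618 ± 76.5), higher in replicate 2. That of hsa-miR-222-5p was 119 and 99.8 RPM (mean 109 ± 13.4), higher in replicate 1. The order 3p arms, then miR-221-5p, then miR-222-5p was the same in both libraries, and the ranges of these 3 steps did not overlap. The values rest on 96516 and 123310 reads of miR-221-3p, 101421 and 140575 of miR-222-3p, 6097 and 10366 of miR-221-5p, and 1284 and 1540 of miR-222-5p. The exact Poisson 95% interval of miR-222-5p, the lowest member, ran from 112 to 125 RPM in replicate 1 and from 94.9 to 105 RPM in replicate 2. Such intervals cover counting error only, since reads amplified by PCR are not independent molecules.

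**Figure D1:**
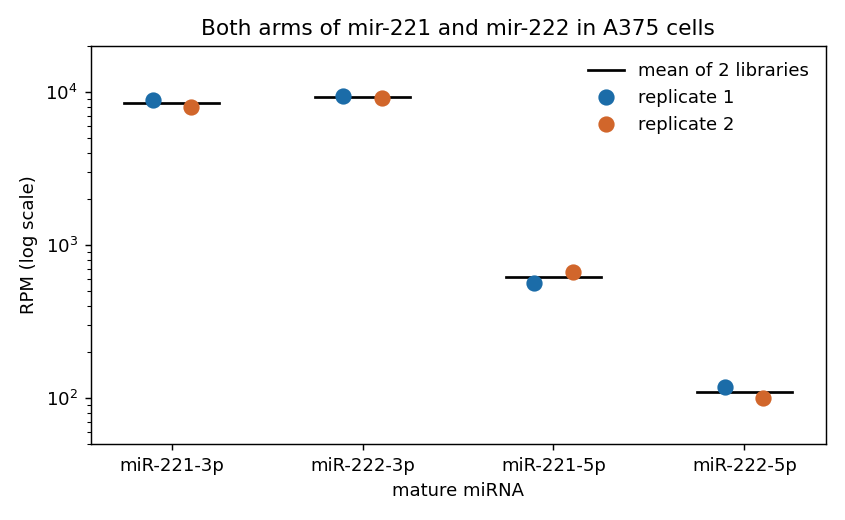
RPM (log axis) of the 4 mature miRNAs of mir-221 and mir-222, with 1 point for each of the 2 libraries and a line at their mean. The 3p arms lie between 7992 and 9376 RPM, miR-221-5p at 564 and 672 RPM and miR-222-5p at 119 and 99.8 RPM.

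Among all 1497 mature names, ordered by mean RPM, miR-222-3p was number 22 and miR-221-3p number 23. MiR-221-5p was number 80, and miR-222-5p number 163. All 4 reached 10 RPM or more in both libraries, a level that 335 names (22.4%) had. The 5p arms, although the minor products of their hairpins, were thus above most listed miRNAs: 94.7% of names had a mean at or below that of miR-221-5p and 89.2% at or below that of miR-222-5p.

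The miRNAs nearest in mean RPM over the 2 libraries show how finely these ranks can be read. Just above miR-222-3p stood miR-186-5p (9808 ± 661 RPM) and miR-27a-3p (9952 ± 861 RPM), and miR-186-5p was below miR-222-3p in replicate 1 (9341 RPM) and above it in replicate 2 (10275 RPM). Below miR-221-3p stood miR-30e-5p (7230 ± 928 RPM) and miR-182-5p (7040 ± 3.20 RPM), both lower than miR-221-3p in each library. The range of mean ± SD of miR-30e-5p overlapped that of miR-221-3p, and that of miR-182-5p did not.

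MiR-221-5p lay between miR-301a-3p (624 ± 14.7 RPM) and miR-107 (619 ± 118 RPM) above, and miR-130a-3p (586 ± 30.2 RPM) and miR-183-5p (532 ± 166 RPM) below. MiR-222-5p lay between let-7d-3p (110 ± 7.97 RPM) and let-7c-5p (110 ± 7.85 RPM) above, and miR-582-3p (109 ± 8.27 RPM) and miR-193a-3p (107 ± 59.1 RPM) below. All 8 ranges overlapped that of the member, so neither 5p arm was told apart from its neighbours in rank. Of the 8, only miR-183-5p kept its order against the member in both libraries.

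**Figure D2:**
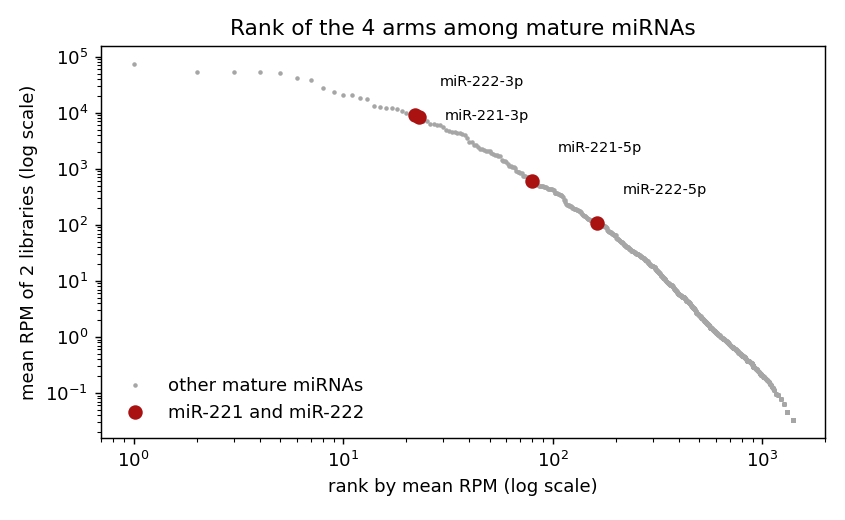
Mean RPM over the 2 libraries (log axis) against rank (log axis) for the listed mature miRNAs, with miR-221 and miR-222 in red. MiR-222-3p and miR-221-3p are numbers 22 and 23, miR-221-5p number 80 and miR-222-5p number 163.

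Because the 3p arms have 1 seed, they were also taken as a single group. Together they reached 18299 RPM in the first replicate and 17104 RPM in the second (mean 17701 ± 845). Among 1095 groups of miRNAs with equal seeds, formed from the 1317 names with a RefSeq sequence, this sum was number 11. The group just above it was ACCCUGU, in which miR-10a-5p (22335 and 24738 RPM) was the only name with a RefSeq sequence. Names without such a sequence are missing from all these sums, among them miR-10b-5p (19897 and 21740 RPM). The groups may therefore lack members, and the shares within them cover matched names only. In the group of miR-221-3p and miR-222-3p the larger part, miR-222-3p, was 52.2% of the summed mean. The leading miRNA supplied 86.0% in the first group (miR-100-5p), 70.0% in the second (miR-92a-3p), 58.0% in the third (let-7a-5p) and 83.5% in the fourth (miR-27b-3p).

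Within each library, miR-222-3p made up 51.2% of the 3p reads in replicate 1 (exact binomial 95% interval 51.0 to 51.5%) and 53.3% in replicate 2 (53.1 to 53.5%). As a ratio, miR-222-3p was 1.05-fold and 1.14-fold the level of miR-221-3p (log2 0.13 ± 0.083, SD, n = 2). In the 5p arms the balance was turned around. MiR-222-5p made up 17.4% of the 5p reads in replicate 1 (16.5 to 18.3%) and 12.9% in replicate 2 (12.3 to 13.6%). MiR-221-5p was thus 4.75-fold and 6.73-fold higher than miR-222-5p (log2 of miR-222 over miR-221 -2.49 ± 0.35). The direction held in 2 of 2 libraries for each arm, and with 2 paired libraries an exact two-sided permutation test cannot give a p below 0.5.

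The next question was how strongly each hairpin favoured its 3p arm. Both did so in both libraries, mir-222 more than mir-221. In mir-221 the 5p arm held 5.94% of the reads of both arms in replicate 1 (exact binomial 95% interval 5.80 to 6.09%) and 7.75% in replicate 2 (7.61 to 7.90%). In mir-222 it held 1.25% (1.18 to 1.32%) and 1.08% (1.03 to 1.14%). The 3p arm was 15.8-fold and 11.9-fold higher in mir-221, and 79.0-fold and 91.3-fold higher in mir-222. On the log2 scale with 1 RPM added, the 5p over 3p ratio was -3.78 ± 0.29 for mir-221 and -6.39 ± 0.15 for mir-222, ranges that did not overlap.

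The ratios were set among the 137 hairpins whose 5p and 3p arms both had a row and summed to a mean of at least 100 RPM. By a margin of over 2-fold in each library, 47 of them favoured the 3p arm and 80 the 5p arm, which left 10. Ordered from the most 3p-sided, mir-222 was number 15 and mir-221 number 30. Part of the 137 share an arm with another hairpin, so those ratios are not their own. With them left out, mir-222 was number 9 and mir-221 number 22 of 101. The counts of 47 and 80 and the quartiles below include them. Among the 47 hairpins that favoured the 3p arm the median log2 ratio was -4.83 (quartiles -6.75 and -2.69), so mir-222 was more one-sided than that median, mir-221 less, and both were between the quartiles.

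The hairpins nearest to mir-221 in mean ratio were mir-509-1 (-3.87 ± 0.33), mir-1304 (-4.39 ± 0.015) and mir-140 (-4.63 ± 0.12) on the more 3p-sided side. On the other side they were mir-128-1 (-3.65 ± 0.38), mir-19a (-3.54 ± 0.025) and mir-28 (-3.23 ± 0.34). Those nearest to mir-222 were mir-29a (-6.62 ± 0.56), mir-197 (-6.65 ± 0.42) and mir-27b (-6.85 ± 0.16), then mir-27a (-6.36 ± 0.0031), mir-128-2 (-6.34 ± 0.44) and mir-301a (-6.17 ± 0.35). Mir-128-1 and mir-128-2 share their 3p arm, so their own ratios were not resolved.

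The minor arm of mir-221 was abundant for a minor arm. Ordered by the level of the lower arm, mir-221 was number 9 of the 137 hairpins and mir-222 number 34, while the median lower arm stood at 30.3 RPM.

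**Figure D3:**
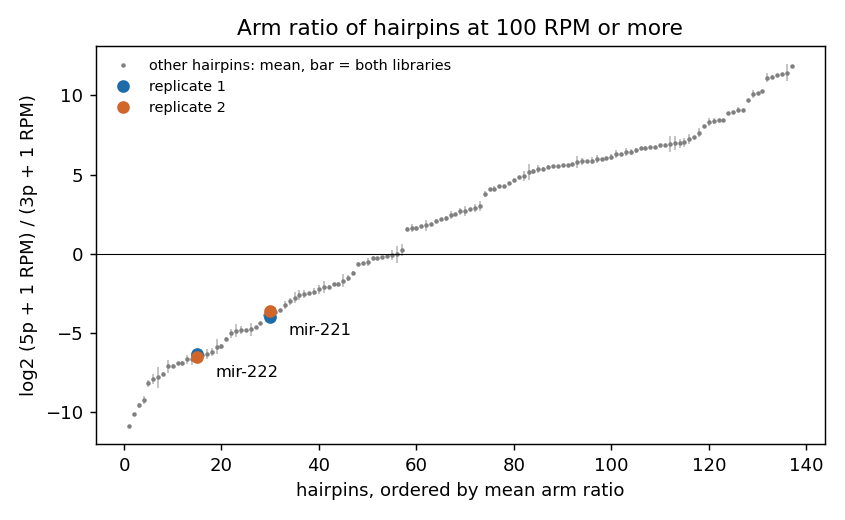
Log2 ratio of the 5p to the 3p arm, with 1 RPM added to each, for 137 hairpins ordered by their mean ratio. Points are means and bars join the 2 libraries, and coloured points give both libraries of mir-221 (-3.98 and -3.57) and mir-222 (-6.29 and -6.50), which lie among the 3p-sided hairpins on the left.

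The members were then compared between the libraries. None of the 4 members differed by over 2-fold, while 40 of 869 miRNAs tested, or 4.6%, passed that fold with an adjusted p under 0.05 (Fisher's exact test of the reads, two-sided, Benjamini-Hochberg adjusted over all 869). Replicate 2 over replicate 1 was 0.896-fold for miR-221-3p, 0.972-fold for miR-222-3p, 1.19-fold for miR-221-5p and 0.841-fold for miR-222-5p. The adjusted p alone was under 0.05 for all 4, from 6.7e-144 for miR-221-3p to 2.6e-05 for miR-222-5p. It was also under 0.05 for 34.5% of all miRNAs tested and for 87.7% of the 171 at 100 RPM or more. At these depths a difference of a few percent passes a test of counting error, so the test compares these libraries and says nothing of a condition.

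Against the 346 miRNAs whose mean was at least 10 RPM, and whose median difference was 1.19-fold in either direction, the 3p arms were closer between libraries and the 5p arms about as far apart. A larger difference than that of miR-222-3p (1.03-fold) was seen for 91.6% of them, and larger than that of miR-221-3p (1.12-fold) for 69.4%. The 5p arms lay near the middle, with 50.3% above miR-221-5p and 50.9% above miR-222-5p. Replicate 2 was lower over these miRNAs in general, with a median log2 difference of -0.10. Relative to that median, the log2 difference was -0.054 for miR-221-3p, -0.15 for miR-222-5p, 0.063 for miR-222-3p and 0.36 for miR-221-5p, so the sign for miR-222-3p depended on the scaling. The percentages above were taken without it, and relative to the median miR-221-5p lay further off than miR-222-5p.

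The ratios within a library do not depend on such scaling, and they moved too. From replicate 1 to replicate 2 the log2 arm ratio changed by 0.41 in mir-221 and by -0.21 in mir-222, in opposite directions. The change in mir-221 was number 56 by size among the 137 hairpins and that in mir-222 number 86, with a median of 0.28. All 4 ratios differed between the libraries by more than counting error, with adjusted p from 3.6e-66 for the arms of mir-221 to 0.00016 for those of mir-222 (two-sided Fisher's exact tests, adjusted over these 4). Counting error was thus smaller than the spread between libraries, which is given by the SD values above.

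**Figure D4:**
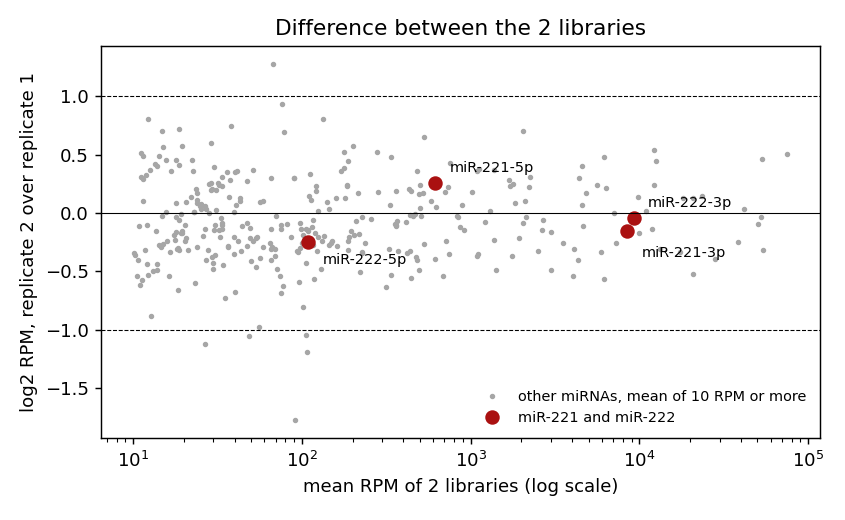
Log2 ratio of RPM in replicate 2 over replicate 1 against mean RPM (log axis) for miRNAs at a mean of at least 10 RPM, with miR-221 and miR-222 in red and dashed lines at 2-fold. The 4 members lie between -0.25 (miR-222-5p) and 0.25 (miR-221-5p), inside the dashed lines.

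The neighbouring position of the hairpins allowed a further comparison within each library. Over 51 pairs of adjacent hairpins on 1 strand at most 10 kb apart, each with an arm at 10 RPM or more in both libraries, the higher arms differed by a median of 5.02-fold, and over the 16 such pairs on chromosome X by 7.63-fold. Some of these pairs hold a miRNA that also comes from a hairpin elsewhere, such as miR-92a-3p, let-7f-5p and miR-19b-3p. The widest pair, mir-363 and mir-92a-2 (3730-fold), is 1 of them, so the medians do not give the output of single loci. By the geometric mean over the libraries, mir-221 and mir-222 (1.05-fold and 1.14-fold) were the second closest pair in both sets, while in replicate 1 alone they were the third. The closest, mir-450a-1 and mir-450a-2, give the same mature miRNA and share their reads. Mir-450a-2 and mir-542 had equal values in replicate 1 and differed by 1.35-fold in replicate 2, a geometric mean of 1.16-fold against 1.09-fold for mir-221 and mir-222.

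Messenger RNA was not measured in these libraries, so the target side can be shown by sequence alone. The reverse complement of the shared seed, ATGTAGC, was searched on the transcript strand in the longest annotated 3′ UTR of 5 reported targets and of BRAF, the gene in the title of the series. It occurred 2 times in CDKN1B and 2 times in KIT. There was 1 match each in CDKN1C, another cell cycle inhibitor (p57), in BBC3, which encodes the apoptosis promoter PUMA, and in TIMP3, an inhibitor of metalloproteinases. BRAF held 1 match. Of 19163 3′ UTRs, 1 a gene, 8.07% held the motif.

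Windows of 30 bases that end 1 base after the match are printed for CDKN1B and KIT, the targets named first above, and for BRAF. The letters are those of the GENCODE 29 transcripts (GRCh38), 5′ to 3′, with the seed match in capitals.
CDKN1B, first match: gatctgcctctaaaagcgttggATGTAGCa
CDKN1B, second match: gtgtatatagtttttaccttttATGTAGCa
KIT, first match: tgccatcttagtttggattcttATGTAGCa
KIT, second match: ggctttttttgtaaatattgaaATGTAGCa
BRAF: ggttttttttttttcctccacaATGTAGCa

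In CDKN1B the matches lie on the plus strand of chromosome 12 from 12721228 to 12721234 and from 12721301 to 12721307, at bases 201 and 274 of a 3′ UTR of 1344 bases. In KIT they lie on the plus strand of chromosome 4 from 54739587 to 54739593 and from 54740516 to 54740522, at bases 1030 and 1959 of 2158. That in BRAF lies on the minus strand of chromosome 7 from 140725685 to 140725691, at base 803 of 7167. Each of these 5 matches is followed by an A, the base that lies opposite position 1 of the miRNA. So are those in CDKN1C and BBC3, while that in TIMP3 is followed by a T. In windows as long as each 3′ UTR, counted from the stop codon, the motif was found in 6.45% of genes with a long enough 3′ UTR for CDKN1B, 10.4% for KIT and 31.7% for BRAF. A match is a description of letters and not a measured site.

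Other miRNAs reported to repress the same main targets were present beside the pair. All 5 listed for CDKN1B reached 10 RPM in both libraries: miR-181a-5p (31917 and 24219 RPM) stood above the miR-221 and miR-222 sum, and miR-148a-3p (5146 and 7161 RPM) below either 3p arm. MiR-24-3p (976 and 1264 RPM), miR-196a-5p (366 ± 12.7 RPM) and miR-152-3p (151 and 193 RPM) were lower still. Of 4 listed for KIT, 3 reached that level, namely miR-34a-5p (514 and 506 RPM), miR-193b-3p (230.0 and 225 RPM) and miR-193a-3p (149 and 65.1 RPM). MiR-494-3p stood at 0.555 and 0.583 RPM, from 6 and 9 reads. Over all mature names, 22.4% reached 10 RPM in both libraries. The 4 miRNAs of the KIT list together reached 844 ± 68.6 RPM, far below the 17701 ± 845 RPM of miR-221-3p and miR-222-3p. The 5 miRNAs of the CDKN1B list together reached 35879 ± 3797 RPM, above that of the pair. None of the 9 had the seed GCUACAU.

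The label of the cells was set beside miRNAs associated with melanocytes or melanoma and with other cell types. MiR-21-5p, miR-204-5p and miR-146a-5p, none of them specific to melanocytes, ranged from 1551 to 59733 RPM. The melanocyte miRNA miR-211-5p was near absent, with 3 and 2 reads, so these values do not check a melanocyte identity. Of 6 miRNAs that mark liver, red cells, white cells, epithelium, muscle and neurons, 4 were listed and none reached 10 RPM in either library. MiR-200c-3p, an epithelial miRNA, was the highest of them at 6.56 and 9.72 RPM. In its family, miR-200, some members stood above 10 RPM in both libraries. These were miR-200b-3p (26.3 and 31.4 RPM) and miR-141-3p (15.6 and 23.2 RPM), while miR-200a-3p and miR-429 stayed below 10 RPM. The low levels of the 4 listed markers thus do not extend to all miRNAs of other cell types.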

How the data were processed

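Small RNA libraries came from A375 cells in 2 DMSO-treated replicates. The tools CASAVA 1.8 and cutadapt 1.2.1 appear in the submitters' processing notes. The sources used here do not give the aligner, miRNA release, genome build or handling of multiply matching reads. The authors deposited RPM, 1 value per hairpin, mature miRNA and library. Each column summed to 1000000, and 100% of values were whole multiples of the smallest in their column (within 0.01 reads), so reads were recovered. Adapter ligation depends on sequence, so RPM compare molar amounts of 2 miRNAs only roughly.

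Both columns were matched by the sample descriptions, and 0 other value columns were present. Each member had 1 hairpin. Names with several hairpins were given their highest copy, and levels stayed on the deposited scale. Ratios used 1 RPM as pseudocount. Library differences used Fisher's exact test for names with 10 reads or more in sum, called at an adjusted p under 0.05 and over 2-fold with 0.5 reads added, tested on simulated data (of 843 simulated miRNAs, with counting error only, all 200 with a 3-fold change and 3 without were called). The analysis used Python 3.11.15, scipy 1.17.1, pandas 2.3.3 and Biopython 1.88. Of 1095 hairpins, 1094 were matched by name to GENCODE 29.

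The members, the lists (miRNAs reported to repress CDKN1B or KIT, hairpins of chromosome X, cell type miRNAs) and the rules were chosen with earlier results of these data known. The 6 genes searched for seed matches (1 other gene searched is not reported here) and the pairs over the whole genome were chosen after the files were seen. The named miRNAs were the 4 members, the 2 names next above and below each in mean RPM, names with the same seed, both target lists, the 3 hairpins next above and below in arm ratio and the leading miRNA of chromosome X. Mir-450a-1, mir-450a-2 and mir-542, the leading miRNAs of other seed groups and others of the X chromosome were named after their values were seen. The same holds for miR-10b-5p and for the miR-200 family members other than miR-200c-3p. Alternatives were other scalings, copies summed, other pseudocounts, fold, read, RPM and hairpin limits, and leaving out each replicate.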

Additional observations from a re-analysis of the deposited data

How the results depend on the processing

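Of 104 alternative values, 81 were scored as unchanged. For this a library difference had to keep its sign, and a count had to stay within 1.5-fold. The KIT list, which went from 3 to 2 at 100 RPM, was thus scored as unchanged. Any other value had to keep its sign and move by less than the SD between libraries, or not at all. Leaving out 1 replicate always moves a mean by less than that SD. Fold limits, read limits and summed copies cannot change the log2 difference of a member with 1 hairpin. The count of 81 thus includes values that could not come out otherwise, and it is no measure of robustness. None of the 4 members was called different between libraries under any alternative. Relative to the total with 1 copy per mature name, miR-221-3p, miR-222-3p, miR-221-5p and miR-222-5p stood at 10858, 11865, 793 and 140 RPM. Without the most abundant miRNA, miR-221-3p stood at 9136 and miR-222-3p at 9991 RPM. With copies summed, their ranks were 26 and 23, and that of miR-222-5p was 167. The seed group held 1.77% of the total with copies summed and 2.27% of the total with 1 copy per mature name. Only the total differs between these shares, not the level of the group. The highest copy may understate other miRNAs, and the sum counts shared reads more than once. Without 1 replicate, the rank of miR-222-3p was 21 to 22 and the arm rank of mir-222 15 to 16.

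With hairpins at 1000 RPM or more, the arm ranks of mir-221 and mir-222 were 16 and 10 of 70. At 10 RPM that of mir-221 was 42 of 210, and without shared arms they were 22 and 9 of 101. With median ratio scaling the log2 difference of miR-222-3p reversed from -0.041 to 0.062. Under that scaling the calls were 23 higher in replicate 1 and 15 in replicate 2, in place of 29 and 11. The 40 calls became 81 at 1.5-fold, 16 at 3-fold and 14 with 100 reads or more, and the 45 names of chromosome X became 76 at 1 RPM and 20 at 100 RPM. No pairing between conditions was possible because the 2 libraries form 1 group. Arms and paralogs were compared within each library. The design has 2 libraries, which limits the precision of each SD.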

Other observations

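Of the mature names given by hairpins on chromosome X, 45 of 116 reached 10 RPM or more in both libraries (38.8%, against 22.4% of all names). Leaving out 4 names that also have hairpins elsewhere, and whose reads cannot be placed, 112 remained with 26414 and 25311 RPM in sum. The 4 arms of mir-221 and mir-222 made up 18981 and 17875 RPM, or 71.9% and 70.6% of that sum. The highest of the other names confined to chromosome X was miR-98-5p, a let-7 relative, at 2747 and 2625 RPM. By mean RPM miR-767-5p (578 and 481 RPM) came next, though miR-500a-3p (460 and 542 RPM) was above it in replicate 2. The highest name with a hairpin on chromosome X was miR-92a-3p at 53477 and 52103 RPM, which also comes from chromosome 13.

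The first base of an arm was compared over 119 hairpins at 100 RPM or more with RefSeq sequences for both arms. The higher arm began with U in 66.4% of them and with A, as miR-221-3p and miR-222-3p do, in 18.5%. The lower arm began with C, as miR-222-5p does, in 42.9%, against 11.8% of higher arms. These hairpins include some that share an arm, and mir-221 is not among them.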
